A study of Mus musculus with 2 samples.

Results

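The CD8 alpha-beta effector-like T cells of the mouse small intestine were 194 of the 12652 cell barcodes in the deposited matrices, 123 in the Tg library and 71 in the FMTg library. They were chosen by reads of a few genes. A barcode needed at least 1000 unique molecular identifiers (UMIs, each standing for 1 captured RNA molecule), at least 300 genes and at most 25% of UMIs from mitochondrially encoded genes. It needed at least 1 UMI over Cd3d, Cd3e and Cd3g, at least 1 of Cd8b1, none of Trdc or Cd79a, and fewer than 2 over the naive or recirculating genes Lef1, Tcf7, S1pr1, Dapl1 and Ccr7. Levels of those 11 genes were thus fixed by the choice and are given only as a description.

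The Tg mouse carried Mdm2+/- with the Cag-CreERTg transgene and the FMTg mouse Mdm2FM/- with the same transgene. Both were C57BL/6j, 60 days old, and had received 1 injection of tamoxifen (6 mg per 40 g) 24 hours before the tissue was taken. Both therefore carry a single Mdm2+ or Mdm2FM allele beside a null allele, the same Cre and the same drug. Cag is a promoter active in most cell types, so recombination was not aimed at T cells, and each group is 1 mouse and 1 10x Genomics Chromium 3' library. The series asks how acute activation of p53 after loss of Mdm2 changes the intestine. With 1 library a group no difference below has a replicate check, no test was made. Intervals are given at 95% and hold counting error alone.

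Most T cells of the small intestine are intraepithelial lymphocytes, which sit between the epithelial cells of the villi. Conventional ones carry an alpha-beta T cell receptor and the CD8 alpha-beta heterodimer, a co-receptor for MHC class I, and arise from naive T cells that met antigen elsewhere. Unconventional ones carry a gamma-delta receptor, or an alpha-beta receptor with the CD8 alpha-alpha homodimer. CD8 T cells kill target cells with granzymes and perforin, held in cytotoxic granules. MDM2 is a ubiquitin ligase that marks p53 for destruction, and p53 switches on genes of cell-cycle arrest, DNA repair and apoptosis.

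In the Tg library these cells held 610112 UMIs, a median of 4550 UMIs and 1828 genes per cell, and 10.0% mitochondrial UMIs. In the FMTg library they held 365038 UMIs, a median of 4405 UMIs and 1682 genes per cell, and 13.6% mitochondrial UMIs. Depth was thus close in the libraries, whereas the mitochondrial share was higher in FMTg. The libraries share 14 barcodes, none of them among these cells.

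Of the 4 markers of the label, Cd8b1 was fixed by the rule and the others were found as follows. Cd8a, the partner chain, had UMIs in 123 of 123 Tg and 66 of 71 FMTg cells. Ccr9, the receptor that draws T cells to the small intestine, had UMIs in 81 and 39 cells. Themis, a T cell signalling protein, had UMIs in 61 and 32 cells. Trac, the constant segment of the alpha receptor chain, was found in 89.4% and 88.7% of cells, and Cd4 in 3 and 0 cells. Cd8b1, which selected them, had 3 UMIs in the median Tg and 4 in the median FMTg cell. In B-like cells (Cd79a and Ms4a1 present, Cd3 genes at 0), where a T cell gene can come only from free RNA or a second cell, Cd8a was in 2.67% and 2.33% of cells and Cd8b1 in 0.000% and 0.388%, with median depths of 3550.5 and 3433 UMIs.

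Near the limits of the rule, 23 Tg and 14 FMTg cells had exactly 1 Cd8b1 UMI, and 667 and 471 T cells that met every other limit had none. A single UMI of the naive genes was held by 18 and 13 cells, and exactly 2 by 5 and 5 cells just outside. In all, 14 Tg and 28 FMTg cells that met every other limit held at least 2 and were left out. On the mitochondrial limit, 18 and 18 cells lay outside with a share above 25% and up to 50%.

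CD8 alpha-beta effector-like cells were a smaller share of T cells in FMTg. They were 123 of 1450 T cells in Tg, or 8.48% (exact Clopper-Pearson interval 7.10% to 10.0%), and 71 of 1441 in FMTg, or 4.93% (3.87% to 6.17%). The difference was -3.56 percentage points (-5.44 to -1.69), more than counting error. Among all barcodes past the quality limits they were 4.12% and 2.54%. T cells with Cd8a but neither Cd8b1 nor Trdc, the candidates for the CD8 alpha-alpha type, were 36.1% of T cells in Tg and 23.9% in FMTg, and naive-like T cells 6.76% and 16.4%. Naive-like T cells had no Trdc and at least 2 UMIs of the naive genes, and no Cd8 gene was required of them. T cells with Trdc, the constant segment of the delta chain, were 38.8% and 45.9%.

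The limit on Trdc bears on that difference. Cd8b1 and Trdc together were found in 8 Tg and 30 FMTg T cells that met every other limit, which is 6.11% (2.67% to 11.7%) and 29.7% (21% to 39.6%) of the cells with Cd8b1. Trdc was in 0.667% and 0.777% of B-like cells, and the median cell with both genes held 6.5 Trdc UMIs in Tg and 8 in FMTg. Exactly 1 Cd8b1 UMI was held by 4 of 8 and 20 of 30 of them. For several other genes such FMTg cells stood near the other T cells with Trdc, but not for Trac or Trbc1. Tcrg-C1, a gamma chain constant segment, was in 6 of 8 and 27 of 30 of them, against 14 of 123 and 4 of 71 CD8 alpha-beta effector-like cells. It was in 88.4% and 85.8% of the other T cells with Trdc. Tcrg-C2, another such segment, did not set the groups apart in this way. It was in 7 of 8 and 24 of 30 of them, and in 106 of 123 and 48 of 71 effector-like cells. The other T cells with Trdc held it in 79.4% and 79.3%. Cd6 was in 2 of 8 and 3 of 30, against 44 of 123 and 33 of 71, and in 0.722% and 2.06% of the other T cells with Trdc. In FMTg Ms4a4b was in 13.3% of them, 59.2% of effector-like cells and 13.3% of the other T cells with Trdc. In the same order Thy1 was in 23.3%, 54.9% and 22.3%, and Il7r in 13.3%, 36.6% and 14.4%. Trac was in 62.5% of them in Tg and 96.7% in FMTg, against 89.4% and 88.7% of effector-like cells and 67.7% and 61.6% of the other T cells with Trdc. Trbc1 was in 4 of 8 and 9 of 30 of them, against 63.4% and 40.8% of effector-like cells and 62.8% and 58.1% of the other T cells with Trdc. With them counted, the shares of T cells became 9.03% and 7.01%, a difference of -2.03 points (-4.06 to 0.00289), which no longer exceeds counting error. That alternative was chosen after the data had been seen.

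**Figure D1:**
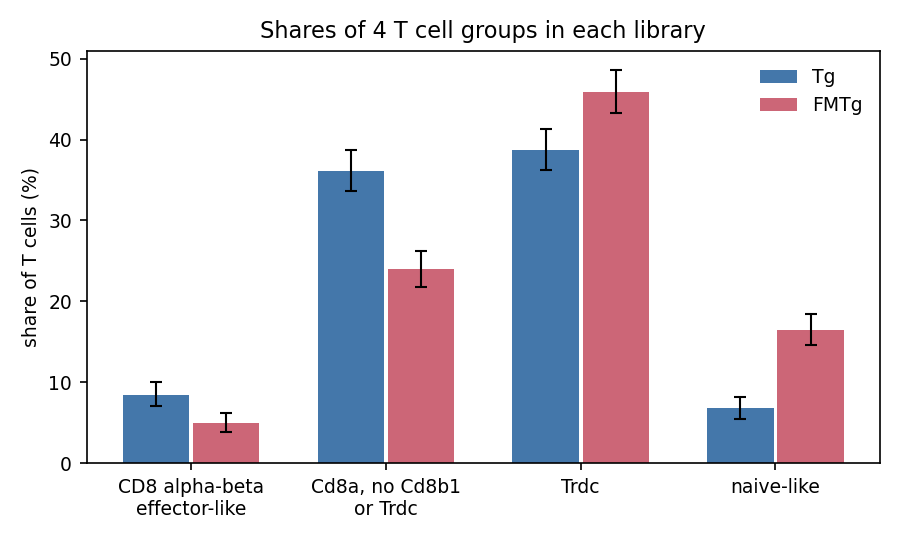
Share of T cells (percent, vertical axis from 0) in each of 4 groups, in the Tg library (blue) and the FMTg library (red); whiskers are exact 95% binomial intervals, with 1 library per bar. CD8 alpha-beta effector-like cells stand at 8.48% and 4.93%, and naive-like cells at 6.76% and 16.4%.

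Several genes that the rule did not use set these cells apart in both libraries from T cells with Cd8a but without Cd8b1 or Trdc. Levels here are CPM, the UMIs of a gene scaled to 1e6 UMIs over the summed cells of a group. Ms4a4b, a membrane protein of T cells, stood at 411 CPM in Tg and 482 CPM in FMTg, against 6.85 and 9.79. Cd6, a receptor that tunes T cell receptor signals, stood at 102 and 153 CPM, against 2.61 and 4.12. Il7r, the receptor chain for the survival cytokine IL-7, stood at 157 and 175 CPM, against 7.5 and 4.12. Every one of these differences exceeded counting error in each library, with log2 ratios of 5.91 and 5.62 for Ms4a4b, 5.28 and 5.22 for Cd6, and 4.39 and 5.41 for Il7r.

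The same comparison gave log2 ratios of 5.02 and 3.47 for Thy1, a surface marker of conventional T cells, 3.83 and 3.94 for Rgs10, a brake on G protein signals, and 2.66 and 2.01 for Lat, the adaptor that links the receptor to its pathway. Itga4, the alpha4 integrin of gut homing, stood at 1.98 and 1.64. Tyrobp, an adaptor of NK cell receptors, was lower by contrast, at 267 and 142 CPM against 1687 and 1367 CPM. Tyrobp was found in 16 of 123 and 6 of 71 cells, and 1 cell gave 38 of its 52 FMTg UMIs. Fcer1g, an adaptor of the same kind, stood at 447 and 258 CPM and was found in 29 of 123 and 11 of 71 cells. Over all 8127 genes compared, 2.94% were higher by 1.5-fold or more in both libraries and 6.34% were lower by as much. Of 23 T cell receptor signalling genes 9 were higher in both libraries and 1 lower, and of 14 NK receptors 3 were higher and 7 lower.

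Against T cells with Trdc the leading gene was Cd6, with log2 ratios of 5.69 and 4.62, then Ms4a4b with 3.51 and 2.95. Of the 8947 genes compared, 2.17% were higher by 1.5-fold or more in both libraries and 5.26% lower. Of 54 interferon response genes 9 were higher and none lower. Against naive-like T cells the 12 leading genes included chemokines, granzymes and integrins, and also Actn2, an actin-binding protein. The gamma chain segments Tcrg-C2 and Trgv2 were among them too. Tcrg-C2 stood at 506 and 353 CPM against 66.5 and 28.8, and Trgv2 at 233 and 249 CPM against 38.0 and 26.5. Ccl4, a chemokine, had log2 ratios of 4.71 and 5.51, Gzmb 4.23 and 4.47, Gzma 4.01 and 4.29, and Itgae, the alphaE integrin that binds E-cadherin on epithelium, 2.90 and 3.57. Of 17 cytotoxic granule genes 12 were at least 1.5-fold higher in both libraries, and none was lower, where 9.88% of the 5880 genes compared were higher and 4.83% lower. The naive-like group held Cd4 at 133 and 134 CPM, against 4.92 and 0 in effector-like cells, so it was not a CD8 group alone. The naive genes separate these groups by construction and are not compared.

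**Figure D2:**
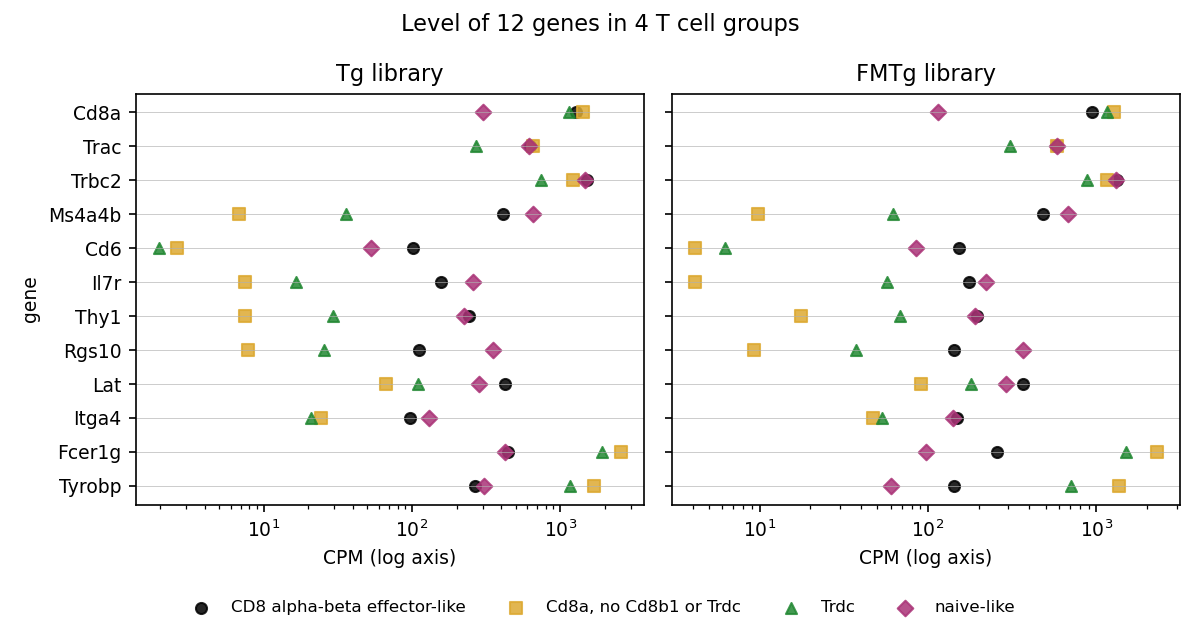
CPM (log axis) of 12 genes in 4 T cell groups, with the Tg library on the left and the FMTg library on the right; each point is the summed cells of a group in 1 library, with no error drawn. Ms4a4b, Cd6, Il7r, Thy1, Rgs10, Lat and Itga4 lie to the right in CD8 alpha-beta effector-like cells relative to cells with Trdc or with Cd8a alone, and Fcer1g and Tyrobp to the left.

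These cells were not uniform. Gzma, the most abundant granzyme, ran from 0 to 71.8 UMIs per 1000 UMIs of a cell in Tg, with a median of 23.2, and from 0 to 56.0 in FMTg, with a median of 18.2. Under 5 per 1000 were 29 of 123 Tg cells, or 23.6% (16.4% to 32.1%), and 22 of 71 FMTg cells, or 31.0% (20.5% to 43.1%). The difference of 7.41 points (-6.06 to 21.5) was within counting error. That boundary was set after the values were seen, and it marks a range and not a type. Between 3 and 8 per 1000 lay 7 Tg and 4 FMTg cells, and at 20 or above 71 and 28. B-like cells reached 1.86 and 1.77 per 1000 at most, and 18 Tg and 17 FMTg effector-like cells were under 1.

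Cells low in Gzma had higher levels of several genes in both libraries. The 12 that led included Xcl1, Il7r, Ms4a4b and Ltb, and also the intracellular Hipk1, Ppid, Stk11, Nop58, Camk2d and Rrp1. Xcl1, a chemokine for cross-presenting dendritic cells, stood at 619 CPM in the Gzma-low against 95.2 CPM in the Gzma-high cells of Tg, and at 983 against 66.1 CPM in FMTg. A single cell gave 55 of the 130 Tg UMIs and another 73 of the 123 FMTg UMIs of Xcl1. Il7r stood at 364 against 97.3 CPM in Tg and at 325 against 113 CPM in FMTg, and Ms4a4b at 874 against 277 and at 788 against 354. Ccr9 stood at 641 against 330 and at 556 against 202. Lower in the same cells were Gzmb, at 422 against 4554 CPM in Tg and at 223 against 2193 in FMTg, and Ccl5, at 10596 against 28388 and at 11925 against 29138. Cited4, a transcriptional co-regulator, had 4 of 110 Tg and 1 of 19 FMTg UMIs there, and Ikzf2, which encodes the transcription factor Helios, 7 of 132 and 3 of 83. Itgae stood at 721 against 702 CPM in Tg and at 427 against 544 CPM in FMTg. These genes were ranked after the split, among 2672 genes with at least 50 UMIs, of which 3.14% were higher and 4.9% lower by 1.5-fold or more in both libraries.

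Across all genes, 5664 had at least 20 UMIs over the 194 cells and were compared between the libraries. Of them 523, or 9.23%, were higher in FMTg by 1.5-fold or more, and 976, or 17.2%, were lower by as much. The median log2 ratio FMTg to Tg was -0.12. Scaling by TMM or by DESeq2 size factors brought that median to 0.00 and the shares to 12.6% and 13.2%, so values below are to be read against -0.12. In the 3 groups set beside these cells the same median was -0.05 for T cells with Cd8a only, -0.02 for T cells with Trdc and -0.10 for B-like cells. The lists of genes described next were chosen with earlier results of these data known, and the groups of cells share their libraries.

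Genes of the cytotoxic granule were lower in FMTg as a list. Of 17 measured, 7 were at least 1.5-fold lower and 1 higher, where 17.2% and 9.23% of all genes were, and the median log2 ratio was -0.50. The summed level was 33807 CPM in Tg and 22505 CPM in FMTg. The list's median stood at -0.20 in T cells with Cd8a only and at -0.14 in T cells with Trdc. In B-like cells it stood at -0.22, over 11 measured genes.

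Gzmb (chromosome 14, 56258838 to 56262260, minus strand, mm10), granzyme B, a serine protease that cleaves caspases, had 2211 UMIs (exact Poisson interval 2120 to 2305) or 3624 CPM in Tg and 588 UMIs (541 to 638) or 1611 CPM in FMTg. The log2 ratio was -1.17 (-1.30 to -1.04), a level 2.25-fold lower. Gzma (chromosome 13, 113093825 to 113100981, minus strand), a tryptase, had 14864 UMIs or 24363 CPM in Tg and 6013 UMIs or 16472 CPM in FMTg, a log2 ratio of -0.56 (-0.61 to -0.52). Both ratios lay beyond counting error and below the median of all genes. In cells thinned to 1000 UMIs, Gzmb was found in 78.0% of Tg and 57.7% of FMTg cells, a difference of -20.3 points (-34.4 to -5.97), and in 3.33% and 0.777% of B-like cells; without thinning it was in 87.8% and 74.6%.

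The ratio of Gzmb was -1.05 (-1.19 to -0.92) among Gzma-high cells alone. Among Gzma-low cells it was -0.92 (-1.68 to -0.22). Free RNA moved the same way: Gzma was in 54.4% of Tg and 43.1% of FMTg B-like cells, with a log2 ratio of -0.58 there, and Gzmb in 8.44% and 3.50%, with a ratio of -1.42; their part in the result was not tested. The level of Gzmb in B-like cells was 18.5 CPM in Tg and 6.9 CPM in FMTg. The other groups had the same sign, with Gzmb at -0.96 (-1.01 to -0.92) in T cells with Cd8a only and -0.79 (-0.83 to -0.75) in T cells with Trdc.

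Among other granule genes, Ctsw, a cysteine protease of killer cells, had 384 UMIs in 115 Tg cells and 147 UMIs in 59 FMTg cells, a log2 ratio of -0.64 (-0.93 to -0.37). Cst7, a cystatin that inhibits granule cathepsins, had 215 and 80 UMIs and a ratio of -0.69 (-1.07 to -0.31). In T cells with Cd8a only Cst7 stood at 0.05 (-0.10 to 0.19). Prf1, perforin, which opens the target membrane, had 56 and 21 UMIs and -0.67 (-1.47 to 0.07), an interval that includes no change. Nkg7, a granule membrane protein, stood at -0.37 (-0.50 to -0.23).

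The upstream sequences of Gzma and Gzmb are shown because these granzymes carry most UMIs of the list and have lower levels in FMTg. RUNX3 is a transcription factor of CD8 T cells, and its core motif was searched as TGTGGT or its reverse complement ACCACA. Each line gives the 250 bases before the RefSeq transcription start, 5' to 3' on the gene's strand, from RefSeq on GRCm38.p6, with matches in capitals.
Gzma (minus strand, chr13:113100982-113101231): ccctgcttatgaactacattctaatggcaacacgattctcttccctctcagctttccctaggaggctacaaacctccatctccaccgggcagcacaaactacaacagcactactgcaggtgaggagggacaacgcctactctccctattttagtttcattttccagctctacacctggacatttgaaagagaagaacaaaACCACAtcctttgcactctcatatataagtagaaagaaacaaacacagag
Gzmb (minus strand, chr14:56262335-56262584): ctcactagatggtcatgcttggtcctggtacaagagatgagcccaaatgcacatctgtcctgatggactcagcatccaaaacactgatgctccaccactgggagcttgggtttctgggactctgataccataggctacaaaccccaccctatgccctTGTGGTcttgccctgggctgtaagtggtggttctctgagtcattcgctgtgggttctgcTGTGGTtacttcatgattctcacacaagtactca
Gzma holds 1 match, beginning 50 bases before the start, and Gzmb holds 2, beginning 93 and 34 bases before it. A match is present in the same window of 14.0% of all 32851 promoters listed. Of the 20 genes of the list 18 are in the table, and 10 hold a match. A gene counts here if any of its starts has a match, whereas the 14.0% counts each promoter by itself. A match is a description of the letters and not a sign of binding.

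**Figure D3:**
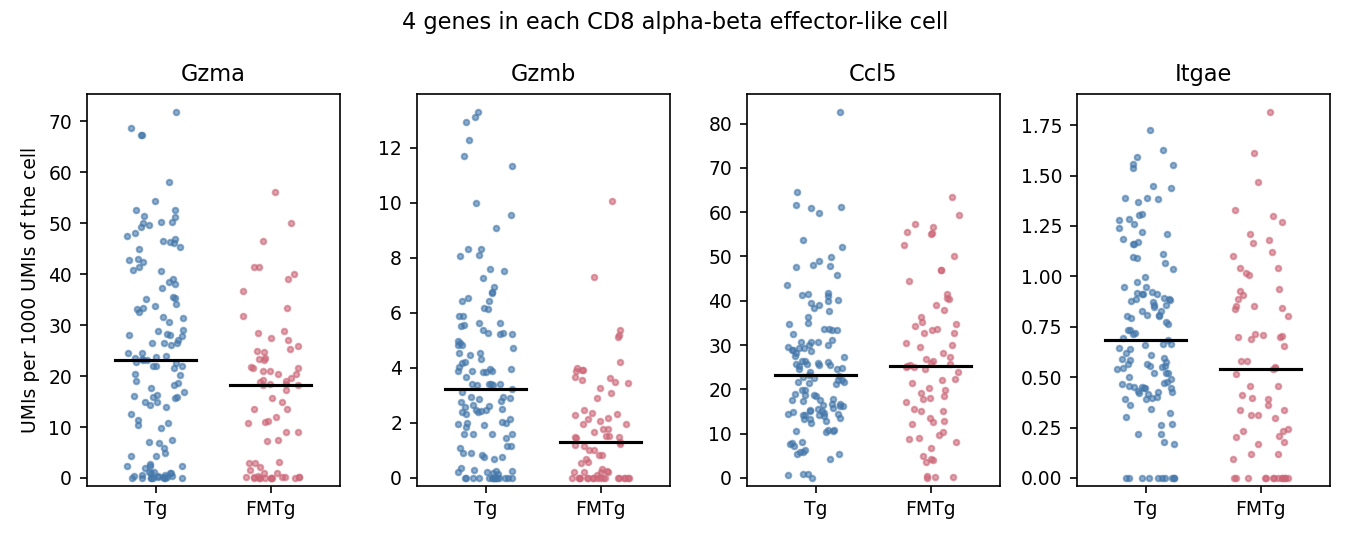
UMIs per 1000 UMIs of the cell (vertical axes, each on its own scale) for 4 genes in each of the 123 Tg and 71 FMTg CD8 alpha-beta effector-like cells; each point is 1 cell and the black line is the median. Gzma has a dense group near 0 in both libraries, the Gzmb medians are 3.24 and 1.31, and those of Ccl5 are 23.2 and 25.3.

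Chemokines had ratios near or above 0. Ccl5, a chemoattractant stored in these cells, had 14877 UMIs or 24384 CPM in Tg and 8780 UMIs or 24052 CPM in FMTg, a log2 ratio of -0.02 (-0.06 to 0.02). Ccl5 was found in 122 of 123 and 70 of 71 cells. Ccl4 had 182 and 233 UMIs and a ratio of 1.10 (0.81 to 1.39), with 74 of the FMTg UMIs in a single cell, and was found in 76 and 41 cells. Ccl3, a relative that binds the same receptors, had 30 and 35 UMIs and 0.96 (0.22 to 1.72), which became -0.39 with at most 10% mitochondrial UMIs. Counting in cells with Trdc brought Ccl4 to 0.05. In T cells with Cd8a only Ccl4 stood at 0.08 and Ccl3 at 0.17. Of 9 cytokine and chemokine genes measured 3 were at least 1.5-fold higher and 1 lower, beside 9.23% and 17.2% of all genes. The 3 were Ccl3, Ccl4 and Xcl1, the last at 0.66 with most of its FMTg UMIs in a single cell. Xcl1 became -3.62 without cells holding genes of other cell types.

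Genes of tissue residence and the NK receptors held a mixture. Of 20 residence genes measured 2 were higher and 6 lower, with a median of -0.25, and of 10 NK receptors none was higher and 4 were lower, with a median of -0.41. Over all genes 9.23% were higher and 17.2% lower, so the share of residence genes that were higher is near that of all genes. Itgae had 431 UMIs in 113 Tg cells and 186 UMIs in 58 FMTg cells, a log2 ratio of -0.47 (-0.73 to -0.22). Itga1, the collagen-binding integrin of resident T cells, had 345 and 149 UMIs and the same ratio, -0.47 (-0.76 to -0.19). Both lie below the all-gene median by more than counting error.

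Rgs1, which dampens chemokine receptor signals, had 541 and 178 UMIs, a log2 ratio of -0.86 (-1.12 to -0.62), and Jaml, an adhesion receptor for an epithelial ligand, 256 and 83 UMIs and -0.88 (-1.26 to -0.52). Ahr, the aryl hydrocarbon receptor, needed for intraepithelial lymphocytes to persist, had 44 and 13 UMIs and -1.02 (-2.03 to -0.10). The other direction held for Cd69, an early activation and retention molecule, at 0.50 (0.04 to 0.95), and for Cxcr6, a chemokine receptor of resident T cells, at 0.43 (0.03 to 0.83). Klrd1, the CD94 chain of NK receptors, had 243 and 87 UMIs and -0.74 (-1.11 to -0.38), and Lag3, an inhibitory receptor, 71 and 21 UMIs and -1.02 (-1.79 to -0.30). Once cells holding Trdc were counted in, Klrd1 became 0.19 and the median of NK receptors 0.13, and with at least 2 Cd8b1 UMIs a cell that median became 0.07.

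Several genes of signalling had large ratios in opposite directions, with their UMIs spread over many cells of the higher library. Jak3 (chromosome 8, 71676296 to 71690575, plus strand, mm10), the kinase of cytokine receptors with the common gamma chain, had 60 UMIs in 47 of 123 Tg cells and 6 UMIs in 6 of 71 FMTg cells, 98.3 and 16.4 CPM. The log2 ratio was -2.58 (-4.08 to -1.37), against -0.88 (-1.32 to -0.45) in T cells with Cd8a only and -0.75 (-1.11 to -0.39) in T cells with Trdc. Over the alternatives run it stayed between -3.00 and -2.11. Cited4 had 110 UMIs in 70 Tg cells and 19 UMIs in 15 FMTg cells, a ratio of -1.79 (-2.58 to -1.08). Cited4 was -0.44 in T cells with Cd8a only and -0.67 in T cells with Trdc.

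Dusp2 (chromosome 2, 127336159 to 127338376, plus strand), a nuclear phosphatase that switches off MAP kinases, went the other way, with 15 UMIs in 12 of 123 Tg cells and 42 UMIs in 26 of 71 FMTg cells. The levels were 24.6 and 115 CPM and the log2 ratio was 2.23 (1.35 to 3.18). It was 0.91 (0.36 to 1.46) in T cells with Cd8a only and 0.86 (0.42 to 1.32) in T cells with Trdc. In B-like cells, where Dusp2 was found in 46.4% and 40.2% of cells, it was -0.51. Gpr65, an acid-sensing receptor, had 41 UMIs in 32 cells and 64 UMIs in 35 cells, a ratio of 1.38 (0.80 to 1.99). Chsy1, an enzyme of chondroitin synthesis, had 35 and 42 UMIs and 1.0 (0.32 to 1.69). Chsy1 was 1.16 (0.86 to 1.46) in T cells with Cd8a only and 1.26 (1.01 to 1.51) in T cells with Trdc. Genes such as Cited4 and Chsy1 were named by the size of their ratio in effector-like cells. That choice favours larger ratios there than in the other groups, although the ratio of Chsy1 was not larger there. Whether these cells differ from the others in their ratios was not tested.

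**Figure D4:**
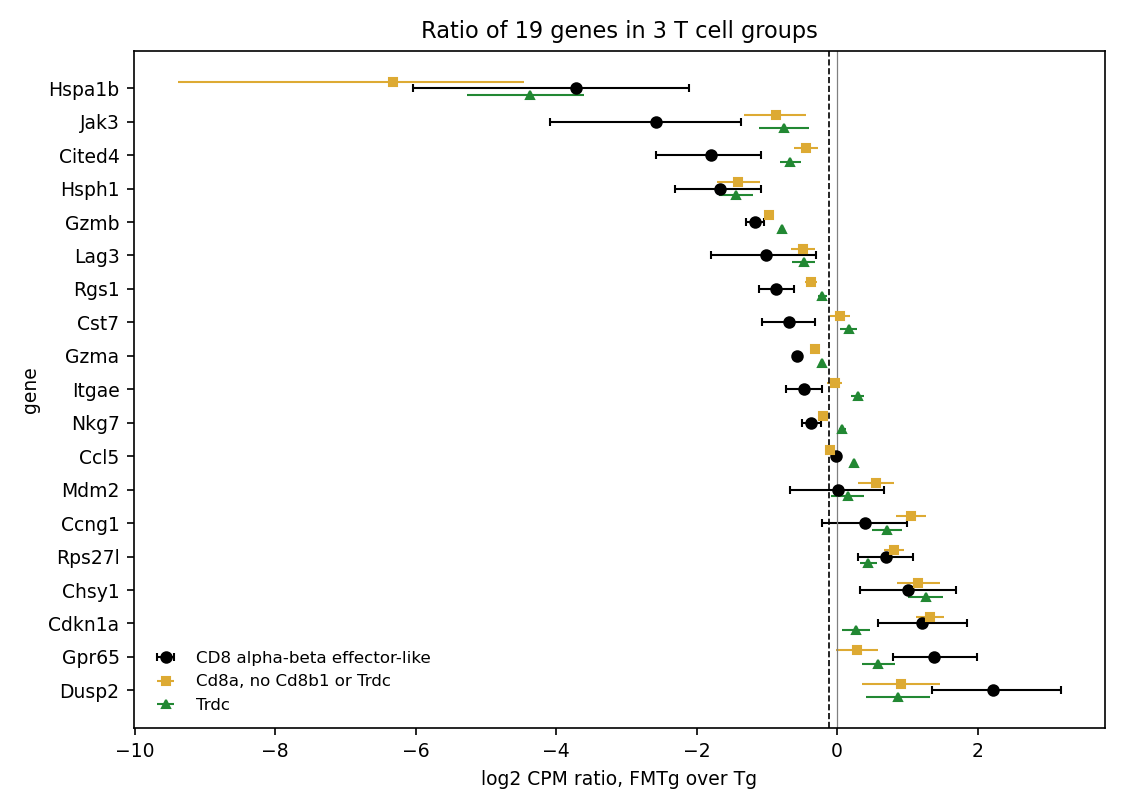
Log2 CPM ratio FMTg to Tg (horizontal axis) of 19 genes in CD8 alpha-beta effector-like cells (black), T cells with Cd8a only (yellow) and T cells with Trdc (green); bars are exact 95% conditional binomial intervals of 1 library against 1, the solid line is 0 and the dashed line the all-gene median of -0.12 in effector-like cells. Jak3 and Cited4 lie furthest left among genes not tied to heat shock, and Dusp2 furthest right at 2.23.

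Mdm2 itself (chromosome 10, 117688875 to 117710758, minus strand, mm10) stood at nearly the same level in both libraries, with a wide interval. It had 53 UMIs in 37 Tg cells, or 86.9 CPM, and 32 UMIs in 19 FMTg cells, or 87.7 CPM, a log2 ratio of 0.01 (-0.67 to 0.67). A 3' tag counts RNA by its end, and the labels do not say which part of the allele recombination removes, so the tag may lie outside that part and does not check the genotype. Trp53 had 46 and 17 UMIs and -0.70 (-1.59 to 0.14). Those counts are low in both libraries.

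Genes that p53 is known to switch on were mildly higher in FMTg as a list, but on thin counts. Of 43 genes 23 were measured, 6 of them at least 1.5-fold higher and 1 lower, beside 9.23% and 17.2% of all genes, and the median log2 ratio was 0.35. It was 0.47 in T cells with Cd8a only, 0.28 in T cells with Trdc and 0.18 in B-like cells. Leaving out cells with UMIs of Cd4, Ms4a1, Cd79b, Jchain, Epcam, Lyz2 or C1qa, which leaves 42 Tg and 28 FMTg cells, turned the list's median to -0.27. That median was taken over the list genes with at least 20 UMIs in the cells left. Across all genes 2386 reached this, against 5664 in the main comparison, so it need not cover the same 23 genes. Epcam, an epithelial gene, alone was in 56 of 123 and 32 of 71 effector-like cells. It was also in 39.8% of Tg and 28.7% of FMTg B-like cells, so cells can be left out for free RNA too.

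Cdkn1a (chromosome 17, 29090976 to 29100727, plus strand), the gene of the cyclin-dependent kinase inhibitor p21, had 39 UMIs in 17 of 123 Tg cells and 54 UMIs in 15 of 71 FMTg cells, a log2 ratio of 1.21 (0.59 to 1.84). Single cells gave 18 of the Tg and 27 of the FMTg UMIs. The ratio became -0.26 in cells with at most 10% mitochondrial UMIs and -0.25 without cells holding genes of other cell types. In T cells with Cd8a only it was 1.32 (1.12 to 1.52). Rps27l, a ribosomal protein paralog, had 117 and 113 UMIs and 0.69 (0.30 to 1.08), turning to -0.25 without cells holding genes of other cell types. Ccng1, cyclin G1, stood at 0.39 (-0.21 to 0.99) and Bax, which opens the mitochondrial membrane in apoptosis, at 0.25 (-0.19 to 0.69). Btg2, an anti-proliferative gene, was lower, with 204 and 69 UMIs and -0.82 (-1.24 to -0.42).

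Heat shock genes were lower in FMTg by their median in all 4 cell groups set side by side. Of 19 measured 10 were at least 1.5-fold lower and none higher, where 17.2% and 9.23% of all genes were. All 19 had a ratio under 0, and the median was -0.67, against -0.75 in T cells with Cd8a only, -0.61 in T cells with Trdc and -0.83 in B-like cells. Hspa1b, an inducible HSP70 chaperone, had 66 UMIs in 34 Tg cells and 3 UMIs in 2 FMTg cells, a log2 ratio of -3.72 (-6.03 to -2.11). Hsph1, an HSP110 co-chaperone, had 149 UMIs in 77 cells and 28 UMIs in 21 cells, a ratio of -1.67 (-2.31 to -1.08). Chordc1, a partner of HSP90, stood at -1.60 (-2.27 to -0.99), Dnaja1, an HSP40 protein, at -1.18 (-1.43 to -0.94), and Hsp90aa1, the inducible HSP90, at -1.16 (-1.45 to -0.89).

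The upstream sequences of Hspa1b and Hsph1 are shown because both were lower together. HSF1 binds repeats of nGAAn, searched as GAANNTTC or TTCNNGAA, each of which reads the same on both strands. The window, strand and capitals are as above.
Hspa1b (minus strand, chr17:34959239-34959488): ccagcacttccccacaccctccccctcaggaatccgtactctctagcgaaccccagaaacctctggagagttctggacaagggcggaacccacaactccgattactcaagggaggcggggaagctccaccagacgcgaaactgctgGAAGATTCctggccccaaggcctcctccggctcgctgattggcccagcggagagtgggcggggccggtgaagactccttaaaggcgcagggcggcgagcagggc
Hsph1 (minus strand, chr5:149636337-149636586, the first of 2 starts): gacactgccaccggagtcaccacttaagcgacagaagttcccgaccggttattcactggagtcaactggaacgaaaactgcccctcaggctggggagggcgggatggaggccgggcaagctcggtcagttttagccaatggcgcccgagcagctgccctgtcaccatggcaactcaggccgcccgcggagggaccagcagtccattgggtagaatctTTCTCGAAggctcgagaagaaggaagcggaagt
Each holds 1 match, beginning 104 bases before the start in Hspa1b and 33 bases before it in Hsph1. The motif is in 12.8% of all 32851 promoters. Of 22 listed genes 17 are in the table, and 8 of them hold it, Dnaja1 among them. Again a gene counts if any of its starts has a match, whereas the 12.8% counts each promoter by itself.

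Interferon response genes had no common direction. Of 46 measured 7, or 15.2%, were at least 1.5-fold higher and 8, or 17.4%, lower, beside 9.23% and 17.2% of all genes, and the median was -0.09. Zbp1, a sensor of Z-form nucleic acid, had 64 UMIs in 39 cells and 17 UMIs in 12 cells, a log2 ratio of -1.17 (-2.04 to -0.38). Irf7, which drives type I interferon, had 33 and 49 UMIs and 1.31 (0.65 to 1.99), 26 of the latter in a single cell. Ly6a, the Sca-1 antigen, had 30 UMIs in 11 cells and 54 UMIs in 9 cells and 1.59 (0.92 to 2.28). Without cells holding genes of other cell types all 3 changed sign, to 0.080 for Zbp1, -0.15 for Irf7 and -0.37 for Ly6a, and Irf7 became -0.36 with at most 10% mitochondrial UMIs.

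**Figure D5:**
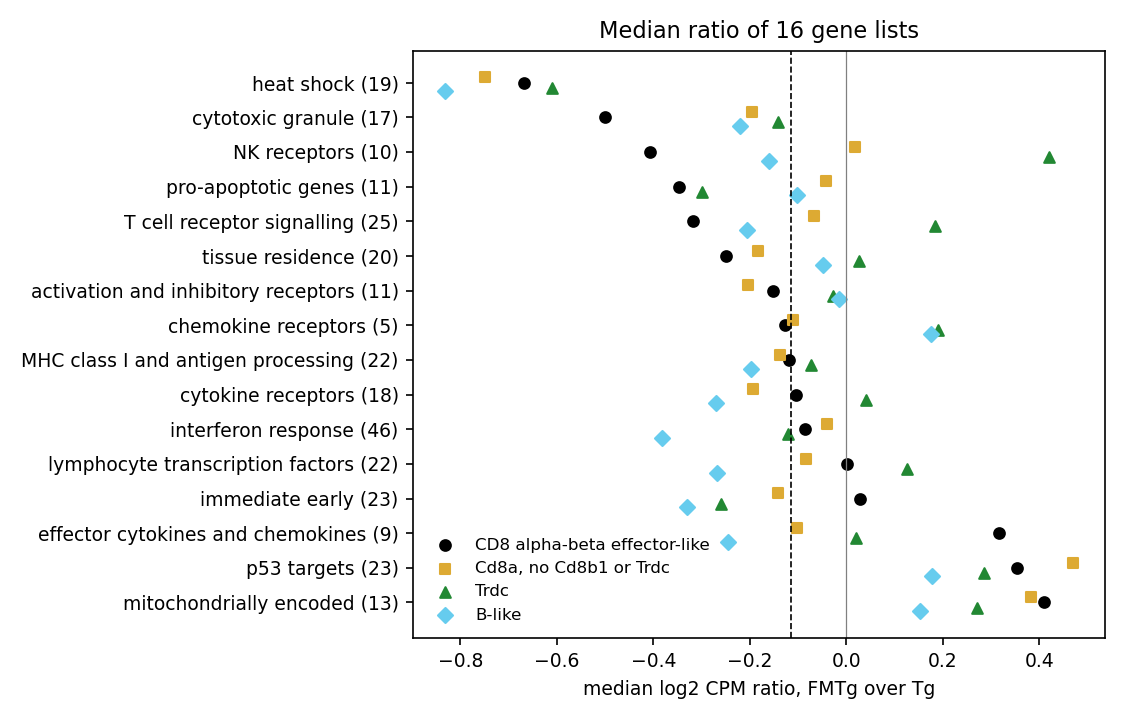
Median log2 CPM ratio FMTg to Tg of 16 gene lists (number of genes measured in CD8 alpha-beta effector-like cells in brackets) in effector-like cells (black), T cells with Cd8a only (yellow), T cells with Trdc (green) and B-like cells (blue); no error is drawn, the solid line is 0 and the dashed line is -0.12, the median of all genes in effector-like cells. Heat shock genes are lowest at -0.67, cytotoxic granule genes at -0.50, and p53 targets at 0.35.

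Mitochondrial RNA and RNA of other cell types also moved with the groups. Of 13 mitochondrially encoded genes all had a positive ratio, with a median of 0.41 and summed levels of 107144 CPM in Tg and 138838 CPM in FMTg. Of 28 epithelial markers 23 were measured, 10 at least 1.5-fold higher and 10 lower, where 9.23% and 17.2% of all genes were, with summed levels of 12194 and 15722 CPM. Reg3b, an antimicrobial lectin of enterocytes, had 1455 UMIs in 123 of 123 Tg cells and 374 UMIs in 68 of 71 FMTg cells, and was also in 99.6% and 90.9% of B-like cells. Apoa4, an enterocyte apolipoprotein, had 675 and 1344 UMIs, 780 of the latter in a single cell. Reg3b was higher in FMTg, at 0.33, with at most 50% mitochondrial UMIs, and Apoa4 lower, at -0.45, with at most 10%. Ly6d, a B cell gene, had 0 and 57 UMIs, all 57 in 1 cell. Of the B cell markers Cd79b was in 35 Tg and 8 FMTg cells, and Ms4a1 in 1 and 1. What part these have in the gene ratios above was not tested, save where leaving such cells out is given beside a value.

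Receptor segments were too sparse to describe the clones. A Trbv segment was found in 18 of 123 Tg and 10 of 71 FMTg cells, over 7 and 7 segments. Trbc1, one of the beta chain constant segments, was in 63.4% and 40.8% of cells, and 43.1% and 31.0% after thinning, a difference of -12.1 points (-26.0 to 2.90) that was within counting error. Its log2 ratio was -0.50 (-0.72 to -0.28), and Trbc2, the other segment, stood at -0.20 (-0.36 to -0.04) and became 0.11 without cells holding genes of other cell types. The 2 segments are near-identical in coding sequence, and whether reads of one were counted for the other was not tested.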

How the data were processed

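Both samples were profiled with the 10x Genomics Chromium 3' protocol. The authors deposited 1 matrix a library of unnormalised UMI counts by gene symbol and barcode. Per the submitters' processing notes, CASAVA 1.8.1, Cell Ranger 3.0 and mm10 were used. Sources used here do not name the gene annotation. Positions came from GENCODE vM21.

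Counts of the chosen cells were summed per library and scaled to CPM. Ratios have exact conditional binomial intervals, sums exact Poisson intervals and shares exact Clopper-Pearson intervals; differences of shares use Newcombe's method. A library at 0 was set to 3 counts. Genes with at least 20 UMIs were compared, and at least 1.5-fold counts as higher or lower. Members and lists were chosen with earlier results of these data known.

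Named genes are the genes of the rule, its markers, Mdm2, Trp53, Cdkn1a, the 10 highest and 10 lowest ratios (at least 50 UMIs, also among genes at 2 times the CPM of B-like cells), up to 6 list members by UMIs and 4 by ratio, and 12 over each other T cell group. Xist and Y-linked, receptor, ribosomal and mitochondrial genes were not ranked. No doublet caller was used in the main values. The calculation was tested on simulated counts. Software was Python 3.11.15, scipy 1.17.1, scanpy 1.11.5, edgeR 4.0.16 and DESeq2 1.42.0, the last 2 for scaling only. Genes picked for the range of Gzma, Epcam and Ms4a1 were chosen after their values were seen.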

Additional observations from a re-analysis of the deposited data

How the results depend on the processing

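Of 17 alternatives, 15 were planned, and leaving out the deepest cells and dropping the limit on Trdc were chosen after the data had been seen. The share difference stayed negative, from -8.01 to -2.03 points, with -8.01 without cells holding genes of other cell types and -2.13 for the rule on cells thinned to 1000 UMIs. The cytotoxic median ranged from -0.56 to -0.31 and that of heat shock from -0.83 to -0.45. The p53 target median ranged from -0.27 to 0.48.

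The number of genes at least 1.5-fold higher in FMTg was 324 with at most 10% mitochondrial UMIs, 785 with at most 50%, 214 without cells holding genes of other cell types, 147 with at least 50 UMIs a gene and 988 with at least 10. The number of genes at least 1.5-fold lower in FMTg was 494, 330 and 1554 in the last 3 of these. The gene minimum changes how many genes are compared by construction. The cause of the other changes was not tested.

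With at most 10% mitochondrial UMIs (61 Tg and 15 FMTg cells), Apoa4 became -0.45, Ccl3 -0.39, Cdkn1a -0.26 and Irf7 -0.36, and with at most 50% Reg3b became 0.33. With at least 2 Cd8b1 UMIs Tyrobp became 0.65, a gene found in 6 FMTg cells in the main values, with 38 of its 52 UMIs in 1 cell. Leaving out cells holding genes of other cell types kept 42 and 28 cells and 2386 compared genes. The p53 target median there became -0.27. The value of Apoa4, log2 CPM ratio FMTg to Tg, became -0.0084, and likewise that of Cdkn1a -0.25, Irf7 -0.15, Itga4 -0.092 and Ly6a -0.37. In the same setting Rps27l became -0.25, Trbc2 0.11, Xcl1 -3.62 and Zbp1 0.080. Without the limit on Trdc, the median of gamma-delta markers became 0.72, Fcer1g 0.40 and Klrd1 0.19. The cause of these changes was not tested either. Of 57 genes followed, 32 kept 1 sign in every alternative that gave a value. Among them were Gzma, Gzmb, Jak3, Cited4, Dusp2, Gpr65, Itgae, Rgs1 and Hspa1b. Their size was less steady than their sign for the granzymes. Gzma left its main interval in 9 of 16 alternatives and ranged from -0.72 to -0.27. Gzmb did so in 4 of 16 and ranged from -1.63 to -0.98.

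The main limits are 1 library a group, 71 FMTg cells and free RNA. No paired analysis was possible because each group has 1 sample. Fewer CD8 alpha-beta cells in the tissue and fewer recovered by dissociation cannot be told apart.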
